A study of Mus musculus with 6 samples.

Results

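Amino acids and small peptides cross cell membranes through carriers of several solute carrier (SLC) gene families. In the mouse gene table, 67 of 43432 identifiers carried a symbol of the Slc1, Slc3, Slc6, Slc7, Slc15, Slc36, Slc38 or Slc43 families. The serotonin carrier Slc6a4 was left out by the rule, which used gene names and no measured value. The deposited table held raw read counts from the colon of 6 wild-type mice, with 1 poly(A) RNA library per mouse. The 3 stressed mice (10, 11 and 13) were dissected right after the last restraint episode. Restraint, in which a rodent is held in a tight enclosure, was given in episodes of 30 min over 3 days. The 3 resting mice (15, 17 and 19) are labelled as such, although their records carry the same note on restraint. The sources used here do not give strain, age or sex, or say whether resting mice were handled and fed alike.

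The gut lining takes up amino acids from the lumen mostly with sodium, and small peptides with protons. Some carriers work alone, and others are heteromers in which a heavy chain of the Slc3 family brings a light chain of the Slc7 family to the membrane. Proteins of a meal are absorbed mainly in the small intestine, and colon cells use these carriers for luminal uptake, for their own supply from blood and, in lysosomes, for sensing amino acids.

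Library totals were between 16425525 and 19819267 counts. In resting colon, all the members together took 0.298% to 0.31% of the counts of a library, and in stressed colon 0.276% to 0.319%. Epithelial markers were plentiful in all libraries, with the summed level of 7 colonocyte markers at 17456 to 19028 CPM in stressed mice and 12962 to 16930.3 CPM in resting mice (CPM is the count scaled to library size with TMM factors). Most of this sum was Car1, at 12621, 11565 and 13021 CPM in stressed mice and 9379, 7441 and 10326 CPM in resting mice. Of the 7 markers, 4 had log2 fold changes above 0 and 3 below. The colonocyte marker Car1 had a log2 fold change of 0.45 and the water channel gene Aqp8 one of -1.06, both with an unadjusted edgeR p under 0.05 and neither with an adjusted one under it in the fit of all mice. Without the filter on low counts edgeR called both, as DESeq2 did Car1 and as edgeR did Aqp8 without stressed mouse 11 (adjusted p = 2.11e-05). Summed levels of small intestine and proximal colon markers did not overlap between the groups, and those of distal colon and adipocyte markers did. The 4 matched distal colon markers summed to 2.25 to 3.8 CPM in stressed mice and to 19.4, 14.3 and 3.21 CPM in resting mice 15, 17 and 19, with none at 0 in every library. The 5 small intestine markers summed to 65.4 to 110.4 CPM in stressed mice and 44.5 to 49.6 CPM in resting mice, with Lct and Apoa4 near 0. The 4 proximal colon markers summed to 4475 to 5448 CPM in stressed mice and 3568 to 4234 CPM in resting mice. Cyp2c55 made up most of this sum, at 4957, 4042 and 4701 CPM in stressed mice and 3631, 3863 and 3194 CPM in resting mice. The proximal markers Hao2 and Slc37a2 overlapped between the groups. The 5 adipocyte markers summed to 148 to 213 CPM in stressed mice and 128 to 181 CPM in resting mice. Enteric glia markers summed to 16.9 to 17.5 CPM in stressed mice and 15 to 15.4 CPM in resting mice. The summed ranges of goblet, smooth muscle, macrophage, T cell, B cell, fibroblast and endothelial markers overlapped between the groups. By edgeR with all mice and the filter, no marker of any list passed the threshold. Without the filter edgeR called the small intestine markers Sis (adjusted p = 7.86e-06) and Rbp2 (0.0264), the distal marker Hoxa13 (1.03e-05), the proximal marker Cyp2c55 (0.0413) and the adipocyte markers Retn (0.00994) and Plin1 (0.0281). DESeq2 also called Cyp2c55 and Retn, and edgeR called Sis without stressed mouse 11 and Hoxa13 without resting mouse 19. Their part in the results on transporter genes was not tested. The tissue was bulk colon, so fewer cells of a type and less RNA per cell cannot be told apart.

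Of the 67 transporter genes, 48 passed the filter on low counts and 19 did not. Slc6a16, Slc6a18 and Slc7a12 had no read in any library, and the other 16 untested genes had between 1 and 27 counts over the 6 libraries. Slc6a18, a neutral amino acid carrier known from kidney, and Slc6a20b, a proline carrier gene with 5 counts in all, were among these. So were the noradrenaline and dopamine carrier genes Slc6a2 and Slc6a3, with 3 and 4 counts, and the peptide carrier gene Slc15a5 with 3. In resting colon 30 members reached 1 RPKM (CPM per kilobase of exon), 9 reached 10 RPKM and 1 exceeded 100 RPKM.

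Slc6a14 was by far the most abundant transcript of these carriers. It encodes a sodium- and chloride-coupled carrier that takes up neutral and cationic amino acids together. Its level per length was 399, 317 and 357 RPKM in stressed mice 10, 11 and 13, against 334, 357 and 353 RPKM in resting mice 15, 17 and 19. The stressed range enclosed the resting one. Slc6a14 (ENSMUSG00000031089) lies on chromosome X from 21714896 to 21742355 in mm10. It made up 52.3% ± 1.62 of the summed level per length of all the members in stressed and 51% ± 0.625 in resting mice (SD, n = 3 each). Next came Slc1a5, a sodium-dependent exchanger of neutral amino acids best known for glutamine uptake, at 58.2 ± 0.711 RPKM in stressed and 56.6 ± 3.57 RPKM in resting mice. The level of Slc6a14 was 6.14 ± 0.666 times that of Slc1a5 in stressed and 6.17 ± 0.546 times in resting mice.

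Slc3a1, Slc6a8, Slc6a6 and Slc38a2 followed. Slc3a1 encodes the heavy chain of the carrier for cystine and dibasic amino acids, and averaged 39.5 ± 8.57 RPKM in stressed and 49.5 ± 3.25 RPKM in resting mice. Slc6a8, the creatine carrier, averaged 36.6 ± 4.66 RPKM in stressed and 41.5 ± 2.91 RPKM in resting mice. Slc6a6, the taurine carrier, stood at 38.7 ± 4.45 RPKM in stressed and 38.1 ± 1.48 RPKM in resting mice. Slc38a2, a sodium-coupled carrier of small neutral amino acids, stood at 23.2 ± 1.43 RPKM in stressed and 24.1 ± 1.41 RPKM in resting mice. In the resting order the ranges of Slc6a8 and Slc6a6 over the 3 mice overlapped, so this pair did not differ beyond its spread. The first 3 genes were separated from their neighbours, and so were Slc6a6 through Slc36a1, each having a resting range that did not meet that of the next gene. Below Slc7a7 nearly all neighbours overlapped, since 11 of 47 adjacent pairs had separate ranges in all. The 12 highest genes were the same 12 in stressed and in resting colon.

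**Figure D1:**
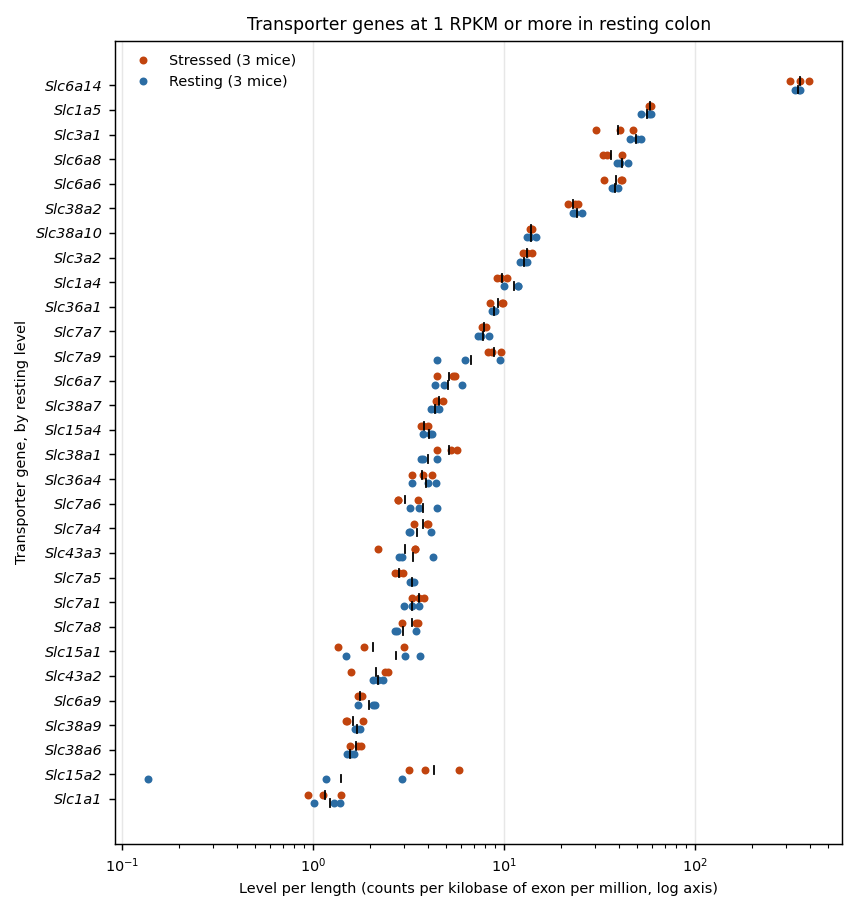
Level per length of the 30 transporter genes at 1 RPKM or more in resting colon, on a log axis, with 1 point per mouse and a black tick at each mean (stressed in orange above, resting in blue below). Slc6a14 stands at 317 to 399 RPKM, the next gene near 57 RPKM, and Slc15a2 has the widest spread.

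No transporter gene passed the threshold between stressed and resting colon by edgeR's quasi-likelihood test (0 of 48, adjusted p under 0.05), where 0.0310% of all 16119 genes tested did (0.0248% higher and 0.00620% lower in stressed colon). The smallest adjusted p of a member was 0.494. At an unadjusted p under 0.05 there were 5 members (10.4%), against 6.92% of all genes. Of these, 2 were higher in stressed colon, where 3.52% of all genes were, and 3 were lower, where 3.41% were. DESeq2 and limma-voom also called 0 members after adjustment, with 0.347% and 0.0186% of all genes called by each in turn. Each gave 4 at an unadjusted p under 0.05, with 5.18% of all genes by DESeq2 and 6.89% by limma-voom. edgeR without the filter on low counts called 2 members, Slc15a2 (adjusted p = 0.00146) and Slc38a1 (adjusted p = 0.0372), in a fit that called 0.588% of 25666 genes.

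The groups did not overlap for 4 of the 48 members (8.33%), below the 12.7% of all genes tested. Slc15a2 and Slc38a4 lay above the resting range in all 3 stressed mice, and Slc7a5 and Slc7a11 lay below it. The share above was 6.13% and the share below 6.58% over all genes. The median log2 fold change of the tested members was 0.04, with 29 above 0 and 19 below, and over all genes the median was -0.003. For 37 members the 95% interval of the log2 fold change lay within 2-fold either way, and for 25 it lay within 1.5-fold. For the other 11 the interval reached a 2-fold change.

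**Figure D2:**
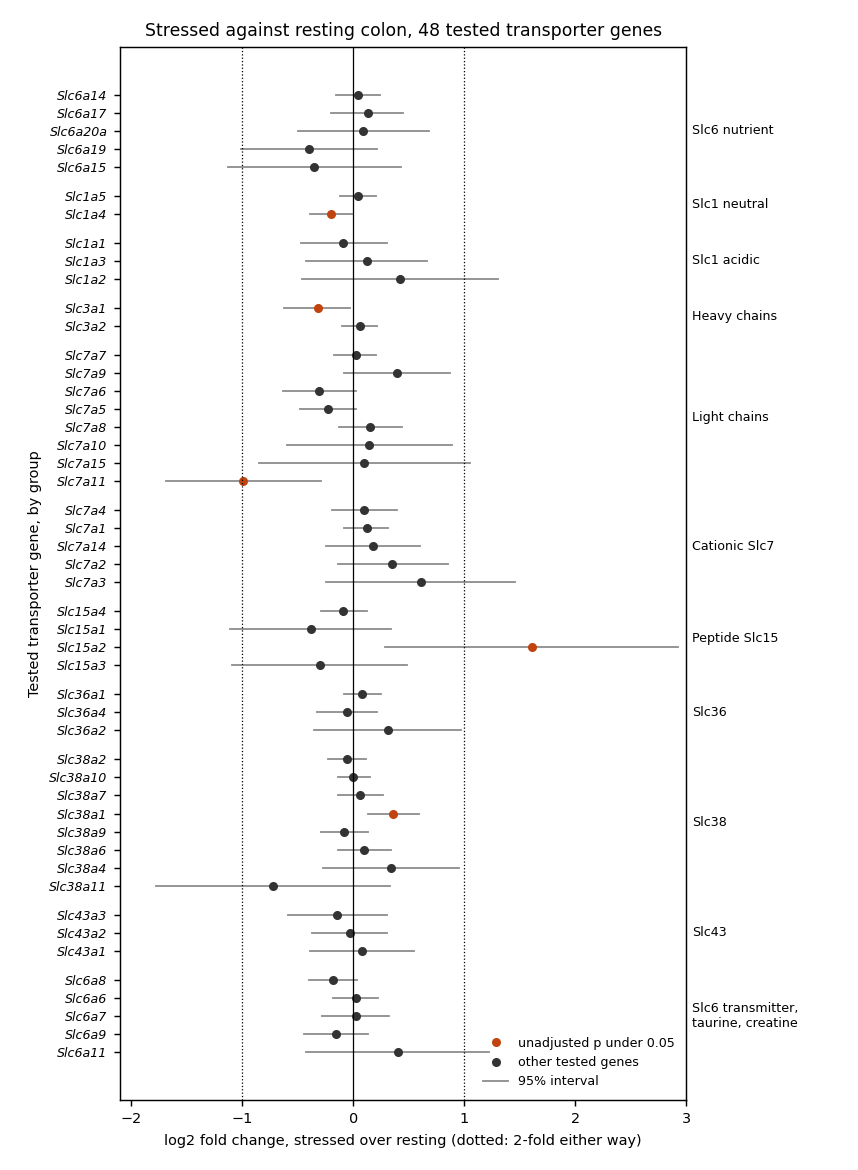
Log2 fold change of stressed over resting colon with its 95% interval for the 48 tested transporter genes, grouped by role and, within a group, ordered by resting level. Genes with an unadjusted p under 0.05 are orange (Slc1a4, Slc3a1, Slc7a11, Slc15a2 and Slc38a1), and most intervals cross 0 inside the dotted 2-fold lines.

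Among sodium-coupled carriers of nutrient amino acids, the abundant Slc6a14 had a log2 fold change of 0.04 ± 0.09 (SE; 95% interval -0.16 to 0.24). The sign of this value turned without stressed mouse 10 (-0.05). Slc6a19 encodes the main neutral amino acid carrier of the small intestinal brush border. It was at 1.85, 1.91 and 1.34 CPM in stressed mice, against 2.45, 2.64 and 1.66 CPM in resting mice, a log2 fold change of -0.40 (-1.01 to 0.21). The ranges overlapped through resting mouse 19. Slc6a20a, a carrier of proline and related imino acids, was at 2.88 ± 1 CPM in stressed mice and 2.72 ± 0.262 CPM in resting mice. The neuronal carrier genes Slc6a15 and Slc6a17 were at 1.5 ± 0.669 and 10.6 ± 1.5 CPM in stressed, against 1.92 ± 0.357 and 9.7 ± 1.17 CPM in resting mice. None of the 5 tested genes of this group had an unadjusted p under 0.05.

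Both Slc1 exchangers of neutral amino acids were abundant. Slc1a5 had a log2 fold change of 0.04 (-0.12 to 0.20). Slc1a4, which exchanges alanine, serine, cysteine and threonine, was at 38.3, 41 and 36.4 CPM in stressed mice, against 46.6, 46.7 and 39.7 CPM in resting mice. Stressed mouse 11 lay above resting mouse 19, so the ranges met (log2 fold change -0.20 ± 0.09, edgeR adjusted p = 0.694). The unadjusted p, under 0.05 here, was above it in 4 of the 6 fits that left out a mouse, namely resting mouse 15 or 17 or stressed mouse 10 or 13, and it was not under 0.05 by DESeq2 or limma-voom. The acidic amino acid carriers were low. Slc1a1, the epithelial and neuronal glutamate carrier, averaged 9.6 ± 1.89 CPM in stressed mice and 10.2 ± 1.55 CPM in resting mice. The glial glutamate carrier genes Slc1a2 and Slc1a3 had log2 fold changes of 0.42 (-0.46 to 1.30) and 0.12 (-0.43 to 0.66).

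In the heteromeric carriers, levels differed between subunits. Slc3a1 and the light chain Slc7a9 form the carrier that takes up cystine and dibasic amino acids at the apical membrane, and loss of either gene causes cystinuria. Slc3a1 was at 108, 69.2 and 92.2 CPM in stressed mice, against 105, 119 and 113 CPM in resting mice. Stressed mouse 10 lay within the resting range and the other stressed mice below it (log2 fold change -0.32 ± 0.13, edgeR adjusted p = 0.672). Without stressed mouse 11 the value was -0.17, and the unadjusted p, under 0.05 with all mice, was above it there and also without resting mouse 17 or 19. Slc7a9 was at 23.1, 25.9 and 22.2 CPM in stressed mice, against 11.9, 16.7 and 25.5 CPM in resting mice. Resting mouse 19 matched the stressed mice and the other 2 resting mice lay below (log2 fold change 0.39 ± 0.21, edgeR adjusted p = 0.76). This value was 0.73 without resting mouse 19, 0.17 without resting mouse 15 and between these without any other mouse.

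Per length, the heavy chain exceeded its light chain in every mouse. The ratio of Slc3a1 to Slc7a9 was 5.5, 3.14 and 4.9 in stressed mice 10, 11 and 13, and 10.4, 8.41 and 5.23 in resting mice 15, 17 and 19. The groups met at resting mouse 19 and stressed mouse 10. Slc7a13, another light chain known to pair with Slc3a1 in kidney, had 3 counts over all libraries. Of the exon length of Slc3a1, 26.5% overlaps exons of Prepl on the opposite strand, and the sources used here do not say whether counting used strand. Prepl was at 57.9, 51.9 and 61.9 CPM in stressed mice, against 64.4, 61.6 and 62.7 CPM in resting mice (log2 fold change -0.14), lowest in mouse 11 as Slc3a1 was.

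Slc3a2, the heavy chain also known as CD98, varied little between mice. It was at 46.5, 49.3 and 44.8 CPM in stressed mice, against 45.9, 46.4 and 43.1 CPM in resting mice (log2 fold change 0.06, 95% interval -0.10 to 0.21). Its light chains Slc7a5, Slc7a6, Slc7a7, Slc7a8, Slc7a10 and Slc7a11 together reached 17.9 ± 1.18 RPKM in stressed and 18.7 ± 0.869 RPKM in resting mice, or 1.35 ± 0.0271 and 1.46 ± 0.116 times Slc3a2. The largest share came from Slc7a7, the basolateral exporter of dibasic amino acids, at 7.89 ± 0.18 RPKM in stressed and 7.8 ± 0.543 RPKM in resting mice. Slc7a6, a related exchanger, was at 12.8, 16.2 and 12.8 CPM in stressed mice, against 16.5, 20.4 and 14.8 CPM in resting mice (log2 fold change -0.31, -0.63 to 0.02). Slc7a8, which exchanges neutral amino acids, had a log2 fold change of 0.15 (-0.13 to 0.44). Slc7a10, a carrier of small neutral amino acids, and Slc7a15 were near 1 CPM, with log2 fold changes of 0.14 (-0.60 to 0.89) and 0.10 (-0.85 to 1.05).

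Slc7a5, the LAT1 light chain that imports large neutral amino acids, was at 11, 10.5 and 9.97 CPM in stressed mice, against 12, 12.6 and 12.3 CPM in resting mice. All 3 stressed mice lay below all 3 resting mice, and the log2 fold change was -0.23 (-0.48 to 0.02, edgeR adjusted p = 0.736).

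**Figure D3:**
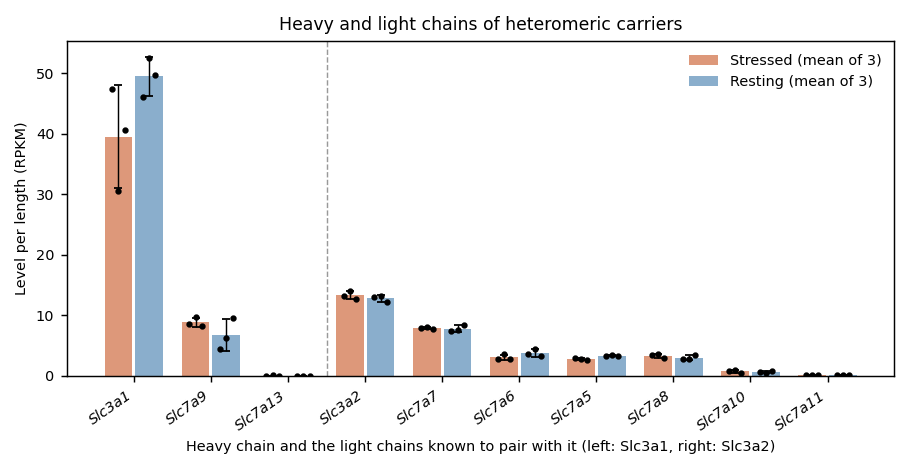
Level per length (RPKM) of heavy chains and the light chains known to pair with them, as bars of the mean with SD and 1 point per mouse (stressed in orange, resting in blue, n = 3 each). Slc3a1 stands several times above Slc7a9, and Slc3a2 stands above each of its light chains. The sum of those light chains, not drawn, was 1.35 ± 0.0271 times Slc3a2 in stressed and 1.46 ± 0.116 times in resting mice.

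Slc7a11 had the second smallest p among the members. It encodes xCT, the light chain that exchanges glutamate for cystine and supplies cysteine for glutathione, and it is a textbook target of the transcription factor ATF4. It had 14, 23 and 13 counts in stressed mice 10, 11 and 13, against 32, 37 and 26 counts in resting mice 15, 17 and 19. That is 0.718, 1.25 and 0.79 CPM in stressed mice and 1.91, 2.17 and 1.44 CPM in resting mice. All stressed values lay below all resting values, by a log2 fold change of -0.99 ± 0.32 (95% interval -1.69 to -0.29, edgeR adjusted p = 0.567). The value stayed between -1.28 and -0.83 with any mouse left out, and its unadjusted p stayed under 0.05. At these counts the level is near the low end of what was tested, and Slc7a11 dropped out under a minimum count of 30. The gene (ENSMUSG00000027737) lies on chromosome 3 from 49892526 to 50443614.

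The 250 bases before the RefSeq start of Slc7a11, Slc15a2 and Slc6a14 (GRCm38.p6) are given here because these genes had, in turn, the lowest fold change, the highest fold change and the highest level among the members. Capitals mark matches on either strand to TGATGNAA or to AGAACA. TGATGNAA is the core of the amino acid response element bound by ATF4. AGAACA is only a part of the glucocorticoid response element, and the whole element was not searched for.
Slc7a11, chr3:50443614-50443863, minus strand: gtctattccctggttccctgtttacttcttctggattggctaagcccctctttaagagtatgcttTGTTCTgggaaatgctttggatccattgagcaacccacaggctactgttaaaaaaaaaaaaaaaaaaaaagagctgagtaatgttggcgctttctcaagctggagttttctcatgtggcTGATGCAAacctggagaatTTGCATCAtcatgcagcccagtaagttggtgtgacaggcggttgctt
Slc15a2, chr16:36784963-36785212, minus strand: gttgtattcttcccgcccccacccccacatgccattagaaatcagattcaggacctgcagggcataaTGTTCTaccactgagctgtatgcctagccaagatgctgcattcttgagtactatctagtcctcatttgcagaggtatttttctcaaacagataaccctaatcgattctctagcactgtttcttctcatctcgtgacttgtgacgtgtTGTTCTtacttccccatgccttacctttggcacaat
Slc6a14, chrX:21714650-21714899, plus strand: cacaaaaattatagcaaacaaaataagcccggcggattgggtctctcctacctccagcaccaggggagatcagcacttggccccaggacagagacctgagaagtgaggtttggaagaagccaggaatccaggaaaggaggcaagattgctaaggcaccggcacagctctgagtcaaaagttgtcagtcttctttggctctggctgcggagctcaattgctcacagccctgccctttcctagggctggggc

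The Slc7a11 window holds the amino acid response core on both strands, from 66 to 59 and from 47 to 40 bases before the start, in opposite directions. It holds a match to AGAACA from 185 to 180 bases before the start. The Slc15a2 window holds matches to AGAACA at 183 to 178 and at 36 to 31 bases. The Slc6a14 window holds neither set of letters. Over all 32851 promoter windows in the RefSeq table, 3.45% hold TGATGNAA and 16.1% hold AGAACA. The table has windows for 48 of the 67 transporter genes. Some of these have several windows, 69 in all, of which 4 (5.8%, from Slc6a21, Slc7a7 and Slc7a11) hold TGATGNAA and 10 (14.5%) hold AGAACA. The motifs TATAAA (12.4% of all windows) and TGACNNNGC, the antioxidant response core (10.2%), were also searched and are in none of these 3 windows.

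All 5 carriers grouped as cationic had log2 fold changes above 0 (median 0.18), and none had an unadjusted p under 0.05. Slc7a1, the widespread importer of arginine and lysine, was at 41.4 ± 3 CPM in stressed mice and 38.2 ± 3.61 CPM in resting mice. Slc7a2 was at 4.67, 2.83 and 4.19 CPM in stressed mice, against 3.11, 3.11 and 2.93 CPM in resting mice, with stressed mouse 11 the lowest of all. Slc7a3 stayed under 1 CPM in every library (0.742 ± 0.159 in stressed and 0.486 ± 0.136 in resting mice; log2 fold change 0.61, -0.25 to 1.46). Slc7a4 and Slc7a14, relatives whose transport is less well defined, had 0.10 and 0.18.

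Slc15a2 and Slc15a1 were among the members that varied most within a group. Slc15a2, the high-affinity proton-coupled peptide carrier PEPT2 best known from kidney, was at 28.7, 23.6 and 43 CPM in stressed mice, against 1.02, 21.5 and 8.63 CPM in resting mice. In counts this is 559, 433 and 707 in stressed and 17, 367 and 156 in resting mice. All stressed mice lay above all resting mice, but resting mouse 17 was close to stressed mouse 11, while resting mouse 15 was far below. The log2 fold change of 1.61 ± 0.59 had a 95% interval of 0.29 to 2.92 (edgeR adjusted p = 0.635). It was 1.08 without resting mouse 15 and 2.69 without resting mouse 17, and its unadjusted p, under 0.05 with all mice, was above it without resting mouse 19 or stressed mouse 13 and by DESeq2. The SD within a group was 1.58 on the log2 scale, and 0.174% of all genes tested had a larger one. Slc15a2 (ENSMUSG00000022899) lies on chromosome 16 from 36750177 to 36784962.

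Slc15a1, the low-affinity peptide carrier PEPT1 of the intestinal brush border, was at 14.7, 9.04 and 6.62 CPM in stressed mice, against 17.9, 14.8 and 7.3 CPM in resting mice. The groups overlapped widely, with resting mouse 19 below stressed mice 10 and 11 (log2 fold change -0.38, -1.11 to 0.34). The values were -0.11 without resting mouse 15 and -0.76 without stressed mouse 10. For comparison, 2.92% of all genes had a larger SD within a group. Across the resting mice the 2 peptide carriers did not follow each other, since mouse 15 had the highest Slc15a1 and the lowest Slc15a2. In the same mice the distal colon marker Hoxa13 was at 15.5, 11.6 and 1.82 CPM, with stressed mice at 2.26, 1.8 and 0.608 CPM, and its part in the spread of these genes was not tested. Slc15a4 and Slc15a3, which carry histidine and peptides in endosomes and lysosomes, were at 20.3 ± 0.916 and 1.07 ± 0.51 CPM in stressed, against 21.5 ± 1.23 and 1.31 ± 0.0747 CPM in resting mice.

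Slc38a1 had the smallest p of all the members. It encodes a sodium-coupled carrier of glutamine and other small neutral amino acids that is also known from neurons. It was at 98.1, 76.7 and 91.3 CPM in stressed mice, against 65.5, 77.5 and 64 CPM in resting mice. Stressed mouse 11 and resting mouse 17 were nearly equal, and the other mice were apart. The log2 fold change was 0.36 ± 0.10 (95% interval 0.13 to 0.59, edgeR adjusted p = 0.494), and it was between 0.28 and 0.46 with any mouse left out, always with an unadjusted p under 0.05. All 6 enteric neuron markers also had log2 fold changes above 0, as did all goblet, smooth muscle, adipocyte and proximal colon markers. Over all genes, 7906 of 16119 were above 0. The neuron markers summed to 68.8 to 77.8 CPM in stressed mice and 54.3 to 68.9 CPM in resting mice, with none at 0. The part of the neuron markers in the Slc38a1 value was not tested. Slc38a1 (ENSMUSG00000023169) lies on chromosome 15 from 96571418 to 96642913.

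The other 7 tested Slc38 carriers had intervals that included 0. Slc38a2, whose mRNA is known to rise when cells lack amino acids, was at 215, 208 and 191 CPM in stressed mice, against 227, 209 and 203 CPM in resting mice (log2 fold change -0.06, -0.23 to 0.11). Slc38a9, the lysosomal arginine sensor of the growth kinase mTORC1, averaged 27.1 ± 3.19 CPM in stressed mice and 28.6 ± 0.822 CPM in resting mice. Slc38a10 was at 89.3 ± 0.997 CPM in stressed mice and 89.1 ± 4.72 CPM in resting mice, and 92.9% of all genes had a larger SD within a group. Slc38a7, which exports glutamine from lysosomes, had 0.06 and Slc38a6 0.10. At about 1 CPM, Slc38a4 was at 1.49, 1.63 and 1.64 CPM in stressed mice, against 1.37, 0.939 and 1.44 CPM in resting mice, with no overlap but a log2 fold change of 0.34 (-0.27 to 0.95). Slc38a11 was at 0.41, 0.436 and 0.79 CPM in stressed mice, against 1.2, 1.12 and 0.387 CPM in resting mice, where mouse 19 was the lowest of all 6 (log2 fold change -0.72, -1.78 to 0.33).

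**Figure D4:**
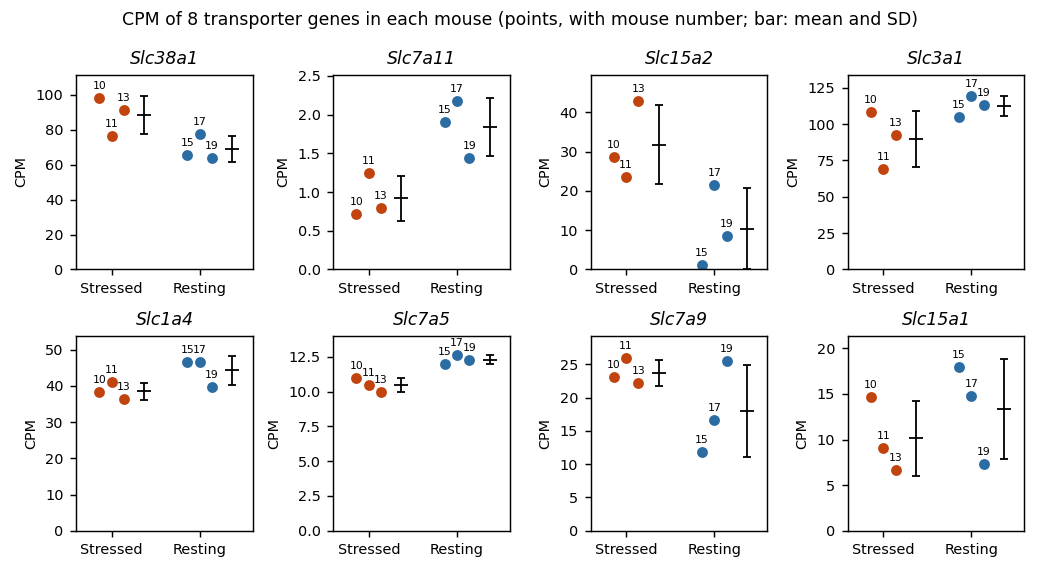
CPM of 8 transporter genes in each mouse (points, with the mouse number), with the mean and SD of each group (stressed left, resting right, n = 3 each). Slc7a11, Slc15a2 and Slc7a5 have groups that do not overlap, and resting mouse 19 lies with the stressed mice for Slc7a9.

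All 6 tested genes of the Slc36 and Slc43 families had intervals that included 0. Slc36a1, a proton-coupled carrier of small neutral amino acids found on lysosomes and the brush border, was at 54.9, 47.9 and 55.7 CPM in stressed mice, against 48.7, 50 and 50.9 CPM in resting mice (log2 fold change 0.08, -0.08 to 0.25). Slc36a4 had -0.06 and Slc36a2, at under 3 CPM, 0.31. Slc43a2, a facilitative carrier of large neutral amino acids, was at 21.6 ± 4.9 CPM in stressed mice and 22.1 ± 1.27 CPM in resting mice, with stressed mouse 10 the lowest at 16 CPM. Slc43a1 and Slc43a3 had log2 fold changes of 0.08 and -0.15.

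In the Slc6 branch for transmitters and osmolytes, here without Slc6a4, taurine and creatine carriers were abundant. Those for GABA, noradrenaline and dopamine were scarce. Slc6a6 was at 351, 284 and 347 CPM in stressed mice, against 317, 313 and 336 CPM in resting mice (log2 fold change 0.02, -0.18 to 0.22). Slc6a8 was at 218, 173 and 181 CPM in stressed mice, against 213, 203 and 233 CPM in resting mice (-0.18, -0.40 to 0.03). For both genes stressed mouse 11 was the lowest of the 6. Slc6a9, the glycine carrier, averaged 9.08 ± 0.25 CPM in stressed mice and 10.1 ± 1.08 CPM in resting mice. Slc6a7, a proline carrier known from brain, averaged 17.8 ± 2.03 CPM in stressed mice and 17.5 ± 2.91 CPM in resting mice. The GABA carrier gene Slc6a11 was at 1.15 ± 0.212 CPM in stressed mice and 0.872 ± 0.415 CPM in resting mice. Slc6a12 and Slc6a13, which also carry GABA, were not tested, at 27 and 16 counts over the 6 libraries.

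By edgeR with all mice and the filter, no gene was called in the 7 lists of genes that work with these carriers. Of 20 amino acid response targets of ATF4, 2 had an unadjusted p under 0.05. Nupr1, a small stress-response nuclear protein, was at 479, 450.4 and 498 CPM in stressed mice, against 388, 357 and 328 CPM in resting mice. All stressed mice were above all resting mice (log2 fold change 0.41 ± 0.08, edgeR adjusted p = 0.212). DESeq2 called it (adjusted p = 0.00109), and so did edgeR without the filter. Sesn2, a leucine sensor that restrains mTORC1, lay the other way at 17.8, 18.7 and 20.6 CPM in stressed mice, against 20.6, 29.8 and 27.5 CPM in resting mice (-0.45 ± 0.13, adjusted p = 0.505). The median of the list was 0.02.

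Of 28 genes of lysosomal amino acid sensing by mTORC1, 2 had an unadjusted p under 0.05, Sesn2 and Nprl2 (-0.28), both lower, with a median of -0.03. Among 12 peptidases that release amino acids, 4 had an unadjusted p under 0.05, all higher (33.3%, median 0.08). Naaladl1 was at 115, 85.3 and 79.3 CPM in stressed mice, against 76.2, 63.6 and 71.5 CPM in resting mice (0.41 ± 0.13, adjusted p = 0.567). edgeR without the filter called it (adjusted p = 0.0264). Anpep, the brush border aminopeptidase N, had 0.50. Among partners of carriers at the apical membrane, the sodium-proton exchanger Slc9a3 had 0.18, and Cltrn, which helps amino acid carriers to the surface in kidney, was at 0 in every library.

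The mitochondrial glutamate carrier Slc25a22 was at 50.1, 53.3 and 48.9 CPM in stressed mice, against 58.3, 57.2 and 60 CPM in resting mice (-0.21 ± 0.07, adjusted p = 0.58). It was the single gene with an unadjusted p under 0.05 among 15 tested amino acid carriers of other families, whose median was 0.02. Slc25a44, the mitochondrial carrier of branched-chain amino acids, had -0.15. In glutamine and glutamate metabolism, 1 of 10 genes had an unadjusted p under 0.05, Gpt, which transfers the amino group of alanine, at 136, 138 and 139.9 CPM in stressed mice and 121, 105 and 127 CPM in resting mice (0.23). The glutamine synthetase gene Glul had -0.25. In branched-chain amino acid breakdown none of 10 tested genes did, with Ppm1k at -0.21 and Mccc2 at -0.09. These counts stand beside the 6.92% of all genes at that p.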

How the data were processed

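Colon RNA of 6 mice was analysed from the deposited table of raw counts, whole numbers per Ensembl gene. Per the labels' protocols, libraries were stranded and made after poly(A) selection. The tools were fastp and HISAT2 and the build mm10, per the submitters' processing notes. The sources used here do not give the counter, annotation or strand setting. Symbols matched 42462 of 43432 identifiers. Coordinates and exon lengths came from GENCODE M21 (GRCm38). Groups came from sample titles, which name a separate mouse for each library.

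Differential expression used edgeR 4.0.16 (R 4.3.3) on the counts: filterByExpr (minimum count 10, minimum total 15), which kept 16119 genes, TMM, quasi-likelihood F test, stressed over resting, Benjamini-Hochberg adjusted p under 0.05 over all genes. Other p-values are unadjusted and two-sided, from the same fit. RPKM is CPM per kilobase of exon union. The SD within a group is pooled over both groups, on log2(CPM + 0.1). Library pairs of a group differed beyond counting error (mean chi-square per gene 7.74 to 18.3). The test was also run on simulated counts in which genes of like level varied alike. That run does not cover genes of wide spread such as Slc15a2.

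Alternatives were DESeq2 1.42.0, limma-voom 3.58.1, other scalings, filters and thresholds, and each mouse left out. Named members were the 12 highest, the 12 with the smallest p and 17 genes fixed by role, plus up to 2 genes per pathway or marker list; other members are given more briefly. The members, lists and rules were chosen with earlier results of these data known. In the lists, 3 genes were matched by an older symbol and 1 was not matched. Exons of 16 members overlap those of another gene, all on the opposite strand. Results on some genes are not reported here.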

Additional observations from a re-analysis of the deposited data

How the results depend on the processing

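Groups of 3 mice limit the precision, and carriers near 1 CPM rest on few counts. The count of transporter genes past the threshold was 0 in every alternative run except edgeR without the filter, which called 2. The count over all genes was 5, against 151 without the filter, 56 by DESeq2, 3 by limma-voom and 1 to 14 with a mouse left out; the cause was not tested. The median over transporter genes was between 0.01 and 0.07, within its spread between mice. With the longest transcript as length, 11 of the 12 highest genes were the same, but their order changed. In resting mice Slc3a1 moved from rank 3 to rank 5, at 49.5 RPKM, below Slc6a8 (54.6 RPKM) and Slc6a6 (52.1 RPKM). Slc1a5 kept rank 2 but rose to 84.2 RPKM, against 348 RPKM for Slc6a14, so their ratio was smaller. Of 68 named genes, 12 turned sign under some alternative. With library totals alone Slc6a6 (-0.01), Slc38a10 (-0.03) and Slc7a7 (-0.01) did so. With a mouse left out, ranges were -0.05 to 0.12 for Slc6a14, -0.01 to 0.08 for Slc1a5, -0.03 to 0.11 for Slc6a6, -0.03 to 0.05 for Slc38a10, -0.02 to 0.08 for Slc7a7, -0.14 to 0.15 for Slc43a2, -0.25 to 0.04 for Slc1a1 and -0.23 to 0.27 for Slc6a20a. For the markers they were -0.01 to 0.58 for Clca1, -0.01 to 0.23 for Des, -0.14 to 0.13 for Dcn and -0.45 to 0.07 for Cdh5. No paired analysis was possible because the groups share no mouse number.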
